A study of Oncorhynchus mykiss with 15 samples.

Results

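The livers of rainbow trout in the R3h group were compared with those in the H12h group across all genes, 3 libraries against 3. These are 6 of the 15 liver RNA libraries of a series on hypoxia lasting different times in Oncorhynchus mykiss. All fish were 150 days old and all samples are liver tissue. H12h carries 12 h in its label and R3h carries 3 h, while N carries no time and serves below, with H3h and H24h, as a level for reference. H12h was picked for this comparison as the H time with the highest hypoxia response, so differences in that response are partly set by the choice. What the letters N, H and R stand for is not spelled out, the code names are used as given, and the labels name no other treatment. With no time given for N, no N library is known to match either group in time. The condition and the elapsed time or time of day therefore cannot be told apart. No label says whether each library is a different fish, and the p-values therefore reflect the scatter among libraries, which may be technical.

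Vertebrate cells sense oxygen through prolyl hydroxylases (the EGLN enzymes) and the asparagine hydroxylase FIH (hif1an), which use oxygen to mark the HIF-alpha subunits for destruction or to silence them. When oxygen is short, HIF-alpha accumulates, pairs with ARNT and switches on genes for glycolysis, blood vessel growth and the hydroxylases themselves. When oxygen returns, the hydroxylases work again, and cells meet reactive oxygen species. Free iron makes these more harmful, and ferritin, a shell of subunits that takes iron up in a stored form, keeps it away. The liver is a main site of iron storage, of glucose release and of cholesterol synthesis.

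Library totals were 60458971, 46656840 and 65545661 counts in H12h and 65922994, 62558600 and 53993396 in R3h. The libraries were not equally alike. R3h replicate 3 stood apart: its mean Pearson correlation of log2 CPM across genes was 0.733 with its own group, against 0.811 to 0.928 for every other library of the series with its group. It had 21443 genes with 10 or more counts, the fewest of the 15, and its 10 most abundant genes took 32.3% of its counts. The median SD of a gene in R3h was 0.696 on the log2 scale, against 0.398 in H12h and 0.354 to 0.403 in N, H3h and H24h. H12h replicate 3 had a mean correlation of 0.877 with H12h and 0.894 with N, but such a pattern was not particular to it. N replicates 1 and 2 had 0.871 and 0.858 with N, against 0.936 with H3h and 0.895 with H24h. R3h replicates 1, 2 and 3 had 0.839, 0.811 and 0.733 with R3h, against 0.916, 0.905 and 0.739 with H24h. The means of R3h replicates 1 and 2 with R3h include the outlying replicate 3. They therefore do not show how alike replicates 1 and 2 were to each other. The defining markers of liver were present, since 41 of 42 hepatocyte marker genes passed the filter. Their summed FPKM (fragments per kilobase of gene, scaled to library size) lay between 89061 and 109263 in all 6 libraries. Their mean log2(FPKM + 1) was lower in R3h replicate 3, at 6.26. It was 7.54 and 7.6 in R3h replicates 1 and 2 and 7.14 to 7.61 in H12h. In bulk tissue, fewer cells of a type and less RNA per cell cannot be told apart.

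Of 17502 genes tested, 16 differed at an adjusted p below 0.05 by edgeR's quasi-likelihood test, which is 0.0914% of them. The test took its spread from all 15 libraries, and a fit of the 6 compared libraries alone gave 0 such genes. The 16 genes were 6 higher in R3h (0.0343%) and 10 lower (0.0571%), and 3614 genes had an unadjusted p below 0.05. The 6 that rose were 4 copies of the ferritin middle subunit, the transaminase GOT1 and the mitochondrial gene gbas. The 10 that fell were Parp12, PARP14, TRIM25, gig2p and ERAP2, which belong to antiviral defence and antigen processing, the HIF target apln, and Keap1, TYMS, Lipe and znrf2. All 16 groups of values were free of overlap between R3h and H12h on the scale of the test, as they were for 10.7% of all genes in the higher and 9.94% in the lower direction. On FPKM those shares were 14.0% and 5.98%. The calls rested on small groups: all 16 were kept without H12h replicate 3 or without R3h replicate 2. None was kept without H12h replicate 1 (1 other call) or R3h replicate 1 (0 calls, 3093 genes with an unadjusted p below 0.05), while 4 were kept without H12h replicate 2 and 10 without R3h replicate 3.

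**Figure D1:**
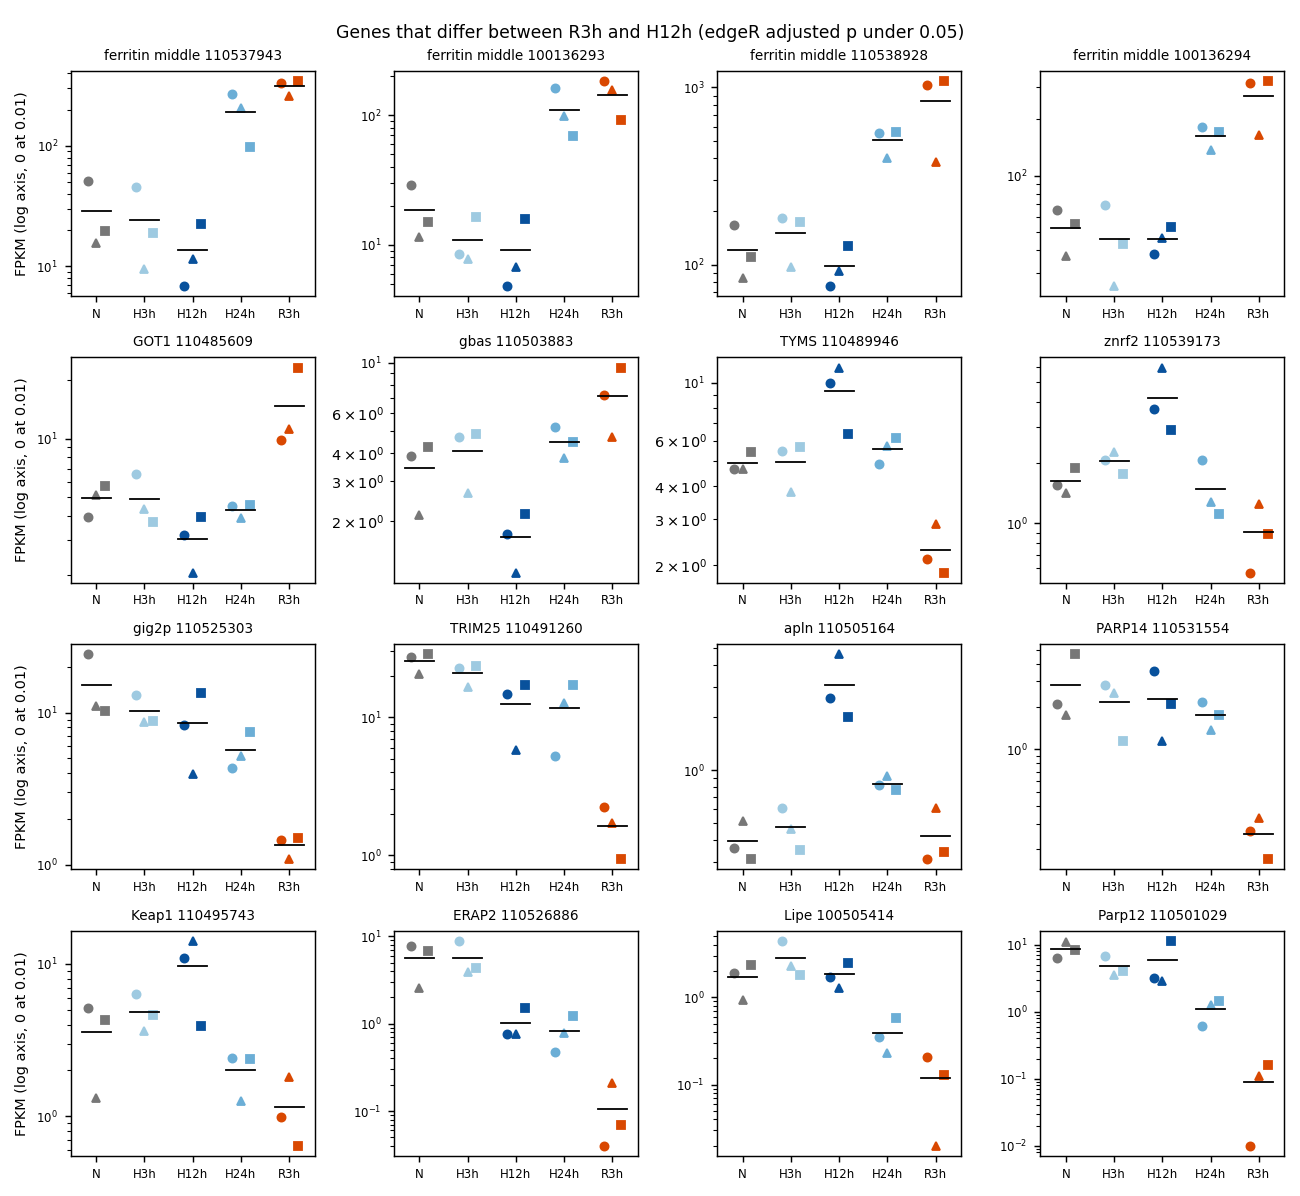
FPKM on a log axis (a value of 0 is drawn at 0.01) of the 16 genes that differ between R3h and H12h, for replicates 1, 2 and 3 (circle, triangle, square) of all 5 groups, with the group mean as a line. In every panel the 3 R3h points (orange) lie on one side of the 3 H12h points (dark blue), and the ferritin copies are also high in H24h.

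The ferritin middle subunit gave the 4 largest rises among the calls. In fish this subunit joins features of the heavy and light subunits of mammals. The deposited table holds 19 genes with this product name, side by side on chromosome 12 between 59046759 and 59389916 (coordinates of the deposited table, whose build is not stated). Reads may be shared among copies whose sequences are alike, which was not examined here, so the values of single copies are uncertain. How far shared reads affect the sum of the family was not tested either, since the counting tool is not known. The summed FPKM of the 19 genes was 614, 678 and 817 in H12h replicates 1 to 3 and 4031, 2347 and 3281 in R3h. Every R3h library was above every H12h library. The sum was 671 ± 138 (SD, n = 3) in N, 670 ± 254 in H3h and 703 ± 104 in H12h, and it was 2349 ± 345 in H24h and 3220 ± 844 in R3h.

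Single copies differed in how far they moved. The copy 110537943 (chromosome 12, 59270561 to 59272708) had 6.89, 11.4 and 22.7 FPKM in H12h and 335, 258 and 347 in R3h. It rose by 4.45 ± 0.66 on the log2 scale (SE, edgeR adjusted p = 0.029). Its neighbour 100136293 (59268176 to 59270155) had 4.82, 6.74 and 15.9 FPKM in H12h and 184, 155 and 91.4 in R3h, a rise of 3.91 ± 0.55 (adjusted p = 0.029). In both copies the lowest R3h library was several times the highest H12h library.

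Copy 110538928 (59159565 to 59183223) went from 76.2, 92.6 and 127 FPKM to 1037, 382 and 1089, a log2 rise of 3.0 ± 0.43 (adjusted p = 0.029). Copy 100136294 (59329424 to 59340198) went from 38.0, 46.2 and 53.3 FPKM to 314, 166 and 322, a log2 rise of 2.44 ± 0.37 (adjusted p = 0.029). In both, R3h replicate 2 was the lowest of its group and still well above all of H12h. Of the other copies, 110537944 had 143, 156 and 172 FPKM in H12h and 634, 560 and 483 in R3h (log2 difference 1.71 ± 0.32, adjusted p = 0.059). At the other end, copy 110537942 had a mean of 10.7 FPKM in H12h and 11.8 in R3h (log2 difference -0.01, adjusted p = 0.99).

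Over the 18 middle subunit genes tested, 17 had a positive log2 difference, the median was 1.56 (0.00 over all genes tested), 4 were called higher (against 0.0343% of all genes) and 11 had groups that did not overlap (61.1%, against 10.7% of all genes). This median lay between 1.46 and 1.75 with any 1 of the 6 libraries left out. The heavy subunit, which oxidises iron as it enters the shell, did not pass the test in any of its copies. The copy 110506658 had 354, 359 and 480 FPKM in H12h and 678, 522 and 2202 in R3h (log2 difference 1.39 ± 0.55, adjusted p = 0.19). The copy frih (100301692) had 263, 285 and 319 FPKM in H12h and 481, 330 and 1602 in R3h (1.34 ± 0.66, adjusted p = 0.26). For these 2 copies R3h replicate 3 was far above the other R3h libraries, as it was for some weaker middle subunit copies. The third, fth1b (110501270), had 34.2, 43.3 and 32.6 FPKM in H12h and 67.5, 70.9 and 101 in R3h, with no overlap (0.96 ± 0.33, adjusted p = 0.14). The whole ferritin family was put together after its values had been seen.

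**Figure D2:**
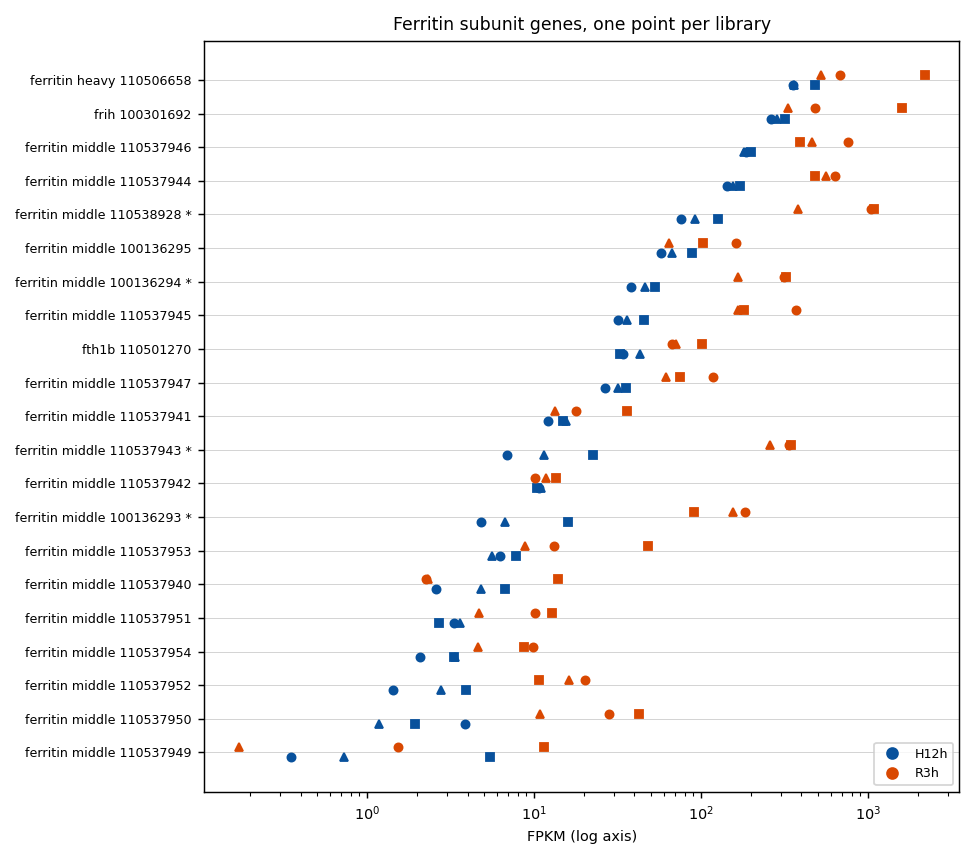
FPKM on a log axis of the 21 ferritin subunit genes tested, 1 row per gene in order of the H12h mean, with 1 point per library (H12h blue, R3h orange; circle, triangle, square for replicates 1, 2, 3). An asterisk marks the 4 genes called, and the R3h points lie to the right of the H12h points in most rows, while rows such as 110537942 and 110537940 overlap.

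The wider iron handling list, mainly genes for iron uptake, export and sensing, did not share this rise as a whole. The list is not free of ferritin, since fth1b is among its genes. Of 20 tested genes, 12 had a positive and 8 a negative difference, the median was 0.05 and none was called. Groups did not overlap in the lower direction for 4 of them (20%, against 9.94% of all genes). In the higher direction this held for 1 (5%, against 10.7%). On FPKM these counts were 2 lower (10%, against 5.98% of all genes) and 3 higher (15%, against 14.0%). The low share in the higher direction was thus seen on scaled CPM only. The metallothionein mt2 (100136731), a small protein that binds zinc and copper, had 655, 461 and 374 FPKM in H12h and 2139, 2041 and 3929 in R3h. Its groups did not overlap, with a log2 difference of 2.29 ± 0.49 that missed the threshold (adjusted p = 0.071).

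GOT1 is the cytosolic aspartate aminotransferase, an enzyme of the malate-aspartate shuttle that carries reducing power into mitochondria. GOT1 (110485609) had 3.18, 2.05 and 3.94 FPKM in H12h and 9.87, 11.2 and 23.2 in R3h, and rose by 2.16 ± 0.36 on the log2 scale (adjusted p = 0.042). Its N mean was 4.93 ± 0.889 FPKM (SD, n = 3), so R3h was above N and H12h alike. The gene gbas (110503883), annotated as NipSnap homolog 2 of the mitochondrion, had 1.75, 1.19 and 2.16 FPKM in H12h and 7.17, 4.71 and 9.51 in R3h. It rose by 1.98 ± 0.33 (adjusted p = 0.045), and its call was lost without R3h replicate 3 (adjusted p = 0.051). A second gbas copy (100301768) was not called, with a log2 difference of 0.44 ± 0.33 (adjusted p = 0.46).

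Of the genes that fell, 5 are known from defence against viruses or from antigen processing. They were grouped so after the calls had been seen, and the share of such genes among all genes tested was not counted. Parp12 (110501029), an interferon-induced ADP-ribosyltransferase in mammals, had 3.17, 2.89 and 11.4 FPKM in H12h and 0, 0.11 and 0.16 in R3h. These R3h values stand for 0, 14 and 18 counts, against 385, 271 and 1493 in H12h. It fell by 6.07 ± 0.89 on the log2 scale (adjusted p = 0.029), a size that depends on counts near 0. PARP14 (110531554), a second enzyme of that family, had 3.55, 1.15 and 2.09 FPKM in H12h and 0.27, 0.33 and 0.17 in R3h, a fall of 3.24 ± 0.49 (adjusted p = 0.029).

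TRIM25 (110491260), a ubiquitin ligase that activates the RNA sensor RIG-I, had 14.8, 5.75 and 17.1 FPKM in H12h and 2.25, 1.73 and 0.94 in R3h, a fall of 2.98 ± 0.49 (adjusted p = 0.042). Its N mean was 25.5 ± 4.34 FPKM (SD, n = 3), so H12h lay between N and R3h. The gene gig2p (110525303), of a fish family induced by virus and interferon, had 8.32, 3.94 and 13.5 FPKM in H12h and 1.45, 1.09 and 1.5 in R3h. It fell by 2.72 ± 0.41 (adjusted p = 0.029). ERAP2 (110526886), which trims peptides for display on MHC class I, had 0.76, 0.76 and 1.53 FPKM in H12h and 0.04, 0.21 and 0.07 in R3h, a fall of 3.31 ± 0.55 (adjusted p = 0.042). ERAP2 was low in both groups beside its N mean of 5.7 ± 2.75 FPKM. The calls of TRIM25 and ERAP2 were lost without R3h replicate 3 (adjusted p = 0.055 for each).

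The interferon pathway list, to which these 5 genes do not belong, gave no call. Of its 43 tested members 30 had a negative difference, with a median of -0.86, and 6 did not overlap in the lower direction (14.0%, against 9.94% of all genes). Its level varied within both groups. The mean log2(FPKM + 1) of the list was 2.99, 2.09 and 4.23 in H12h and 1.69, 1.32 and 3.57 in R3h, so replicate 3 was highest in each. Without H12h replicate 3 the median was 0.13, and without R3h replicate 3 it was -2.32. Among its members, TLR3 (100136342), a sensor of double-stranded RNA, had 12.8, 10.8 and 24.9 FPKM in H12h and 2.67, 2.91 and 7.04 in R3h (log2 difference -2.03 ± 0.46, adjusted p = 0.073). GVINP1 (110486424), a very large interferon-inducible GTPase outside the list, had 22.1, 8.72 and 82.6 FPKM in H12h and 1.40, 0.60 and 1.85 in R3h (-4.85 ± 0.85, adjusted p = 0.055). Neither gene overlapped between the groups.

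Since H12h was picked for its hypoxia response, test outcomes for HIF targets and hydroxylases, the call of apln included, are partly set by that choice. Most of these genes are given here without an adjusted p, and their lower levels in R3h support nothing further. Of the 16 calls, apln belongs to this pathway. It encodes apelin, a secreted peptide that acts on blood vessels and heart and is a HIF target in mammals. apln (110505164) had 2.58, 4.60 and 2.01 FPKM in H12h and 0.31, 0.61 and 0.34 in R3h, and fell by 3.09 ± 0.47 on the log2 scale. The R3h level was that of N, where the mean was 0.393 ± 0.104 FPKM (SD, n = 3). Over the 73 tested HIF targets, 51 had a negative difference, the median was -0.57, and 11 did not overlap in the lower direction (15.1%, against 9.94% of all genes). The list mean of log2(FPKM + 1) was 2.89, 2.78 and 2.16 in H12h and 2.12, 2.23 and 2.26 in R3h. H12h replicate 3 thus lay at the R3h level, and the N mean was 1.95.

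ERO1A (ero1a, 110505225), which forms disulfide bonds in the endoplasmic reticulum, had 7.85, 6.26 and 1.79 FPKM in H12h and 0.76, 0.70 and 0.21 in R3h. The groups did not overlap (log2 difference -3.43 ± 0.68). Vascular endothelial growth factor (110529696, vegfaa) had 37.4, 16.5 and 9.24 FPKM in H12h and 7.95, 9.34 and 14.9 in R3h (-1.15 ± 0.50). The groups of vegfaa overlapped, as did those of ankrd37 (110534293), an ankyrin repeat gene induced by HIF, with 6.09, 3.82 and 4.67 FPKM in H12h and 3.01, 1.91 and 5.34 in R3h (-0.63 ± 0.44).

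The hydroxylases that shut the pathway down had lower group means in R3h for most copies. Of 8 tested copies 7 had a negative difference, with a median of -0.64 (-1.07 without R3h replicate 3, -0.38 without H12h replicate 1, -0.35 without R3h replicate 2). The most expressed copy of FIH (hif1an, 101268916) had 43.6, 30.4 and 58.6 FPKM in H12h and 30.6, 20 and 5.24 in R3h, beside a mean of 3.55 ± 1.12 in N (log2 difference -1.31 ± 0.61). A prolyl hydroxylase copy Egln3 (110505778) had 15.9, 14.97 and 8.99 FPKM in H12h and 6.24, 2.93 and 21.1 in R3h, beside 0.243 ± 0.0473 in N (-0.57 ± 0.69). R3h replicate 3 was the lowest R3h library for FIH and the highest for this Egln3 copy. The other copy, Egln3 110497687, had 17.7, 8.96 and 13.5 FPKM in H12h and 8.69, 3.49 and 4.48 in R3h, with no overlap (-1.34 ± 0.74).

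For the HIF subunits and partners, all 11 tested genes had a negative difference, with a median of -0.58 and no call, and 5 did not overlap (45.5%, against 9.94% of all genes; 3 on FPKM, or 27.3% against 5.98%). The median lay between -0.70 and -0.48 with any 1 of the 6 libraries left out. The mean log2(FPKM + 1) of this list was 2.5 in N, 1.99 in H12h and 1.52 in R3h, so the H12h mean was already below that of N. The hif1a copy 110505629 had 6.39, 6.90 and 8.58 FPKM in H12h and 2.44, 4.75 and 1.41 in R3h (-1.5 ± 0.47, adjusted p = 0.12). The most expressed hif1a copy, 100135944, had 6.74, 6.62 and 9.38 FPKM in H12h and 4.71, 6.36 and 8.80 in R3h (-0.32 ± 0.30, adjusted p = 0.55). The partner arnt (110501040) had 2.53, 2.24 and 2.36 FPKM in H12h and 1.21, 1.65 and 0.51 in R3h (-1.23 ± 0.36, adjusted p = 0.11).

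Keap1, the adaptor that hands the antioxidant transcription factor NRF2 to the proteasome, fell. Keap1 (110495743) had 10.9, 14.2 and 3.92 FPKM in H12h and 0.99, 1.80 and 0.64 in R3h, a log2 fall of 3.31 ± 0.56 (adjusted p = 0.046). The N mean was 3.57 ± 2.01 FPKM (SD, n = 3), which is the level of H12h replicate 3. The call was lost without R3h replicate 3 (adjusted p = 0.057). The gene of NRF2, NFE2L2, has more than 1 copy. The most expressed copy (101268905) had 22.3, 19.04 and 19.07 FPKM in H12h and 17.8, 25.2 and 11.7 in R3h, with overlap (log2 difference -0.30 ± 0.32, adjusted p = 0.62). A far weaker copy (110527610) had 0.12, 0.10 and 0.55 FPKM in H12h and 0.95, 1.47 and 0.74 in R3h (log2 difference 1.96 ± 0.51, adjusted p = 0.086). For this weaker copy both R3h and H12h were below the N mean of 3.24 ± 1.55.

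Of 55 tested antioxidant genes 36 had a positive difference, with a median of 0.28 (0.16 without R3h replicate 3, 0.17 without R3h replicate 1, 0.44 without R3h replicate 2), and Keap1 was the one call. Groups did not overlap in the higher direction for 12 of them (21.8%, against 10.7% of all genes). SRXN1 (110492129), which repairs overoxidised peroxiredoxins, had 3.05, 2.76 and 3.49 FPKM in H12h and 10.3, 4.69 and 8.26 in R3h. Its groups did not overlap (1.23 ± 0.34, adjusted p = 0.094).

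The last 3 called genes belong to other pathways. TYMS (110489946), thymidylate synthase, which makes the thymine nucleotide for DNA synthesis, had 10.02, 11.4 and 6.36 FPKM in H12h and 2.11, 2.87 and 1.87 in R3h. It fell by 2.21 ± 0.35 on the log2 scale (adjusted p = 0.033), with N at 4.93 ± 0.442 between the groups (SD, n = 3). Lipe (100505414), hormone-sensitive lipase, which frees fatty acids from stored fat, had 1.72, 1.26 and 2.49 FPKM in H12h and 0.21, 0.02 and 0.13 in R3h, a fall of 3.83 ± 0.65 (adjusted p = 0.045). The ubiquitin ligase znrf2 (110539173) had 3.69, 5.93 and 2.92 FPKM in H12h and 0.57, 1.25 and 0.89 in R3h, a fall of 2.43 ± 0.40 (adjusted p = 0.042). Lipe and znrf2 lost their calls without R3h replicate 3 (adjusted p = 0.051 for each). Lipe, ERAP2, PARP14 and znrf2 lie below the 5 FPKM that the naming rule asked for, and were added because they are calls.

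Several genes with wide differences between the group means were not calls, and in them 1 library of a group departed from the others. Stress genes were high in H12h replicates 1 and 2 and low in replicate 3. The immediate-early gene FOSB (110507403), a subunit of the transcription factor AP-1, had 13.7 and 18.2 FPKM in H12h replicates 1 and 2, 0.12 in replicate 3, and 0, 0 and 0.03 in R3h (adjusted p = 0.059). The heat shock gene hsp70 (100137015), a chaperone, had 138, 48.3 and 6.45 FPKM in H12h and 2.06, 3.05 and 2.17 in R3h (log2 difference -4.94 ± 0.96, adjusted p = 0.059). For both genes even H12h replicate 3 was above every R3h library, so the groups did not overlap.

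The kinase sgk1 (110529254), induced by glucocorticoids, had 102, 82.5 and 7.38 FPKM in H12h and 3.63, 7.04 and 3.11 in R3h (-4.06 ± 0.80, adjusted p = 0.059). ddit4 (110531799), an inhibitor of mTOR induced by HIF and by glucocorticoids, had 271, 497 and 1.96 FPKM in H12h and 4.42, 17.0 and 4.30 in R3h. For ddit4 H12h replicate 3 lay below all R3h libraries (-5.23 ± 1.32; a HIF target, so given without an adjusted p). Without H12h replicate 3, the low H12h library for these genes, FOSB, hsp70 and sgk1 each had an edgeR adjusted p of 0.0043. With another library left out instead, the adjusted p reached 0.17 for FOSB and 0.21 for hsp70 and sgk1.

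The lists of such genes split in the same way. Of 28 tested glucocorticoid response genes 24 had a negative difference, with a median of -1.37 (-0.90 without H12h replicate 2) and no call, and 3 did not overlap in the lower direction (10.7%, against 9.94% of all genes). Their mean log2(FPKM + 1) was 4.73, 4.62 and 2.62 in H12h and 3.13, 3.65 and 3.17 in R3h. Of 64 immediate-early genes 51 had a negative difference, with a median of -1.13 and no call, and 5 did not overlap in the lower direction (7.81%). Leaving out H12h replicate 1 gave a median of -0.47, and leaving out R3h replicate 3 gave -1.58. Their mean was 3.07, 2.42 and 1.37 in H12h and 1.36, 1.73 and 1.91 in R3h. H12h replicate 3 was the lowest H12h library on both lists, and it lay below the R3h libraries on the first. Heat shock genes as a whole had 24 of 47 positive and a median of 0.02. Of these 47, 8 did not overlap in the lower direction (17.0%, against 9.94% of all genes) and 6 in the higher (12.8%, against 10.7%).

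**Figure D3:**
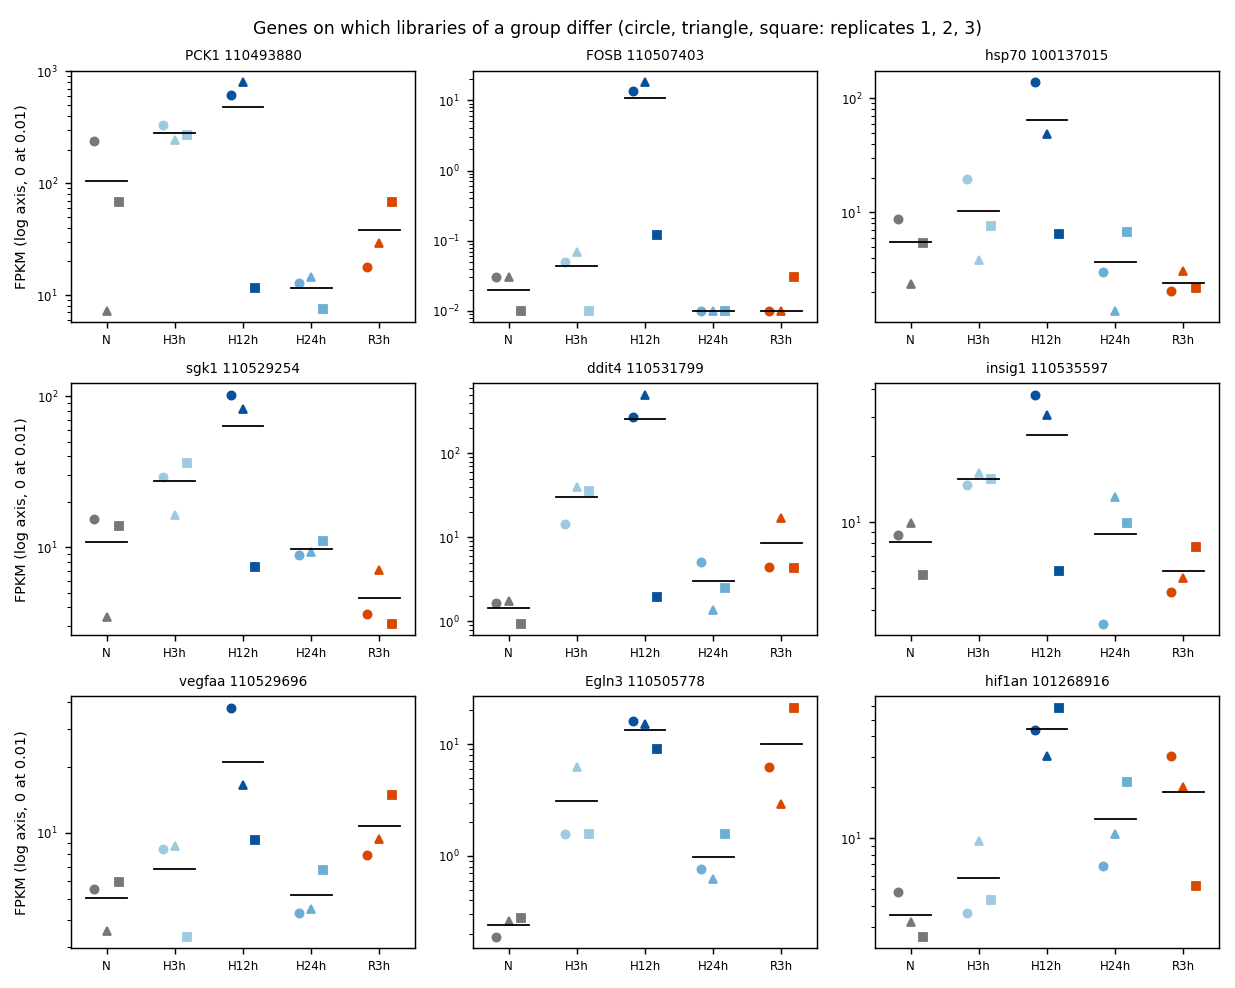
FPKM on a log axis (a value of 0 is drawn at 0.01) of 9 genes on which libraries of a group differ, none of them a call, with replicates 1, 2 and 3 as circle, triangle and square and the group mean as a line. H12h replicate 3 (dark blue square) lies far below the other H12h libraries for PCK1, FOSB, hsp70, sgk1, ddit4 and insig1, while R3h replicate 3 (orange square) is the highest R3h library for Egln3 and the lowest for hif1an.

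In glucose metabolism, PCK1 (110493880), the enzyme that commits carbon to glucose synthesis, had 617, 801 and 11.5 FPKM in H12h and 17.8, 29.5 and 67.8 in R3h (log2 difference -3.91 ± 1.25, adjusted p = 0.12). Here the low H12h library was replicate 3, below all of R3h. Of 25 tested gluconeogenesis genes 20 had a negative difference, with a median of -0.81 (-0.43 without R3h replicate 3), and 5 did not overlap in the lower direction (20%, against 9.94% of all genes). The mitochondrial pyruvate carrier subunit MPC1 (110499396) had 33.3, 34.7 and 35.0 FPKM in H12h and 90.8, 89.8 and 195 in R3h (1.72 ± 0.38, adjusted p = 0.073). Its second copy, MPC1 110502720, had 14.3, 13.8 and 12.3 FPKM in H12h and 44.3, 54.7 and 27.2 in R3h (1.49 ± 0.37, adjusted p = 0.077). All R3h libraries were above all H12h libraries for both MPC1 copies. The glycolysis list had 15 of 35 positive and a median of -0.07.

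Genes of cholesterol synthesis were lower in R3h as a list, with no single call. Of 36 tested genes 33 had a negative difference, the median was -1.30, and 23 did not overlap in the lower direction (63.9%, against 9.94% of all genes). The list mean of log2(FPKM + 1) was 3.68, 3.54 and 3.28 in H12h and 2.59, 2.45 and 2.39 in R3h, so no library of one group reached the other. The replicates 3 lay with their groups here, and the median lay between -1.55 and -1.18 with any 1 of the 6 left out. In N the 3 libraries had 3.78, 4.14 and 2.49, so 1 of them was at the R3h level.

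Among the genes with the smallest p in this list, insig1 (110535597), which holds back the sterol-sensing transcription factor SREBP, had 37.6, 30.5 and 5.98 FPKM in H12h and 4.80, 5.57 and 7.69 in R3h (-2.26 ± 0.67, adjusted p = 0.11). The enzyme Nsdhl (110489156), of the late steps, had 3.09, 3.18 and 2.44 FPKM in H12h and 0.92, 0.93 and 0.37 in R3h (-2.11 ± 0.65, adjusted p = 0.11). The groups of insig1 overlapped, and those of Nsdhl did not. Fatty acid synthesis had 25 of 40 negative, with a median of -0.36 and 9 without overlap in the lower direction (22.5%, against 9.94% of all genes). Leaving out H12h replicate 2 gave -0.21, and leaving out R3h replicate 3 gave -0.60.

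Genes of the respiratory chain and of the proteasome were higher in R3h as lists, again with no call. Of 155 tested oxidative phosphorylation genes 148 had a positive difference, with a median of 0.80, and 66 did not overlap in the higher direction (42.6%, against 10.7% of all genes). Their mean log2(FPKM + 1) was 3.72, 3.95 and 3.99 in H12h and 4.41, 4.43 and 5.17 in R3h. R3h replicate 3 was the highest, and the median was 0.47 without it. ndufc1 (110505009), a subunit of complex I, had 8.76, 12.7 and 10.8 FPKM in H12h and 26.3, 27.3 and 56.6 in R3h (1.61 ± 0.34, adjusted p = 0.069). UQCRH (110508937), of complex III, had 6.30, 6.47 and 11.8 FPKM in H12h and 27.3, 17.4 and 47.7 in R3h (1.83 ± 0.39, adjusted p = 0.071). Neither gene overlapped between the groups.

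Of 105 tested proteasome genes 96 had a positive difference, with a median of 0.92, and 39 did not overlap in the higher direction (37.1%). Their mean was 3.19, 3.17 and 3.61 in H12h and 3.88, 3.54 and 4.79 in R3h, so R3h replicate 2 lay below H12h replicate 3. The N mean was 4.44, above H12h and above 2 of the 3 R3h libraries. PSMD14 (110527429), which removes ubiquitin from substrates at the lid, had 3.09, 3.50 and 5.28 FPKM in H12h and 10.7, 8.70 and 31.3 in R3h (1.98 ± 0.50, adjusted p = 0.080). Without R3h replicate 3 the list median was 0.45.

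The median of the cytosolic ribosomal proteins rested on R3h replicate 3. Of 184 tested genes 167 had a positive difference, with a median of 0.62, and 12 did not overlap in the higher direction (6.52%, against 10.7% of all genes). On FPKM these were 71, or 38.6% against 14.0% of all genes, so the reading against all genes turns round with the scale. Without R3h replicate 3 the median was 0.10, and without both R3h replicate 3 and H12h replicate 3 it was 0.00. The list mean was 6.91, 7.05 and 7.02 in H12h and 7.19, 7.38 and 8.27 in R3h. RPL22 (110494437) had 113, 118 and 139 FPKM in H12h and 180, 178 and 661 in R3h (1.32 ± 0.45, adjusted p = 0.13). How much of the difference in the respiratory, proteasome and ribosomal lists goes with other features of R3h replicate 3, such as its low number of detected genes or its cell makeup, was not tested.

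**Figure D4:**
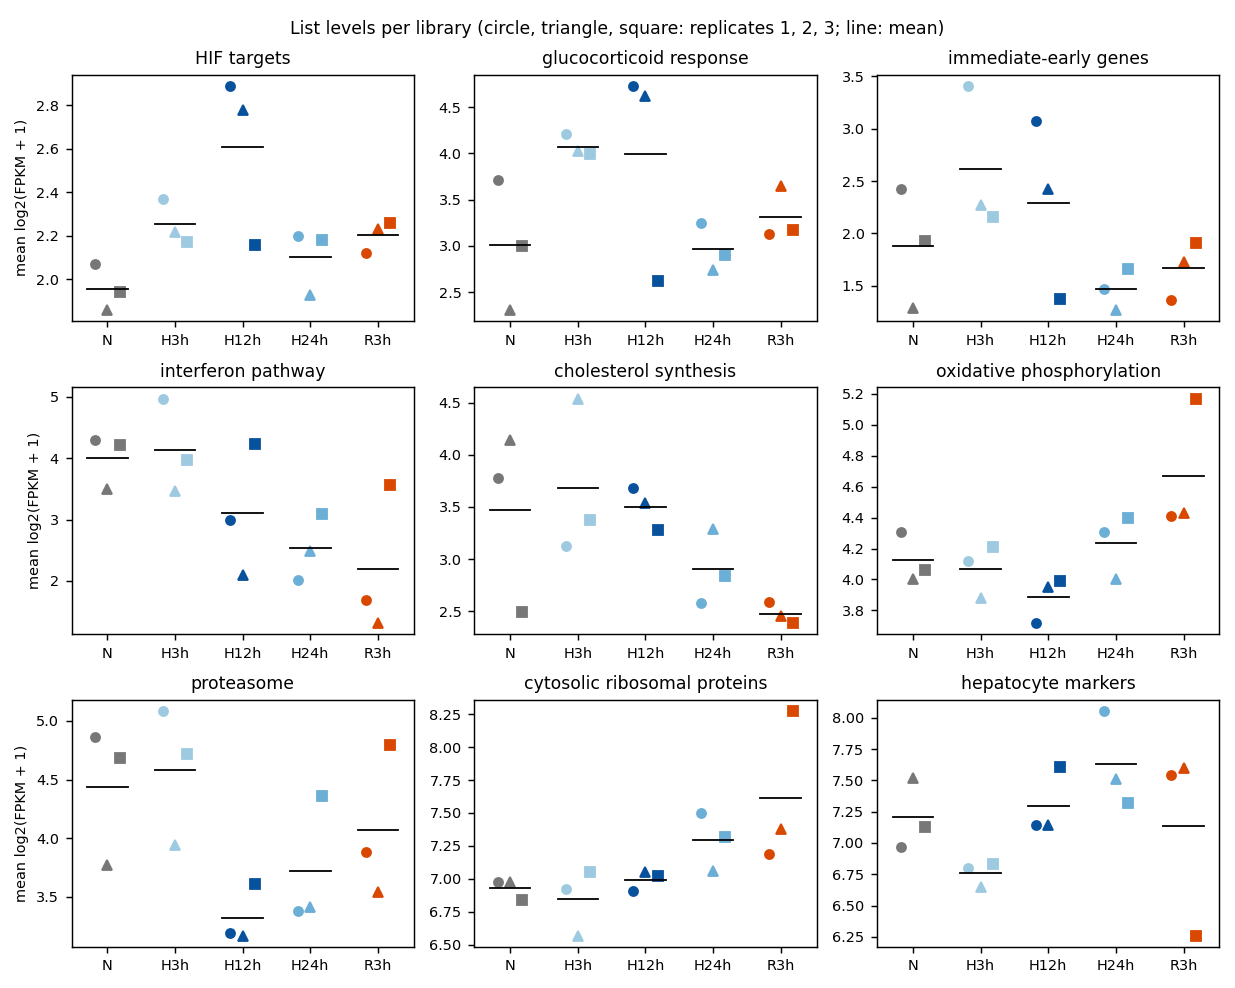
Mean log2(FPKM + 1) over the tested genes of 9 lists, 1 point per library (circle, triangle, square for replicates 1, 2, 3) and a line for the mean of each of the 5 groups. Cholesterol synthesis and oxidative phosphorylation separate all 3 R3h libraries from all 3 H12h libraries, while H12h replicate 3 departs from its group for HIF targets, glucocorticoid response and immediate-early genes, and R3h replicate 3 for hepatocyte markers and ribosomal proteins.

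Secreted plasma proteins had mostly negative differences. In the complement list 36 of 43 were negative, with a median of -0.60, and 14 did not overlap in the lower direction (32.6%, against 9.94% of all genes). In the acute-phase list 27 of 41 were negative, with a median of -0.45, and 14 did not overlap in the lower direction (34.1%). In the coagulation list 32 of 39 were negative, with a median of -0.40, and 8 did not overlap in the lower direction (20.5%). On FPKM the lower counts were 7 for complement (16.3%), 8 for acute-phase (19.5%) and 3 for coagulation (7.69%), against 5.98% of all genes. Without R3h replicate 3 these medians were -0.34, -0.24 and -0.21. The acute-phase median was -0.75 without R3h replicate 2, and the coagulation median was -0.65 without R3h replicate 1.

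Markers of other cell types gave no call. The macrophage list had 13 of 15 tested genes negative, with a median of -0.63 and 4 without overlap in the lower direction (26.7%, against 9.94% of all genes; 3 on FPKM, or 20% against 5.98%). Its summed FPKM over 21 genes, none of them at 0 in all 6 libraries, was 181, 197 and 225 in H12h and 202, 203 and 49.1 in R3h. R3h replicate 3 was thus low, and the median was -0.30 without it and -1.19 without R3h replicate 1. The scavenger receptor CD163 (110487464), a macrophage marker, had 7.72, 6.34 and 10.8 FPKM in H12h and 4.5, 3.02 and 0.38 in R3h (log2 difference -1.72 ± 0.58, adjusted p = 0.13). The erythrocyte list had 21 of 28 positive, with a median of 0.39 (0.12 to 0.72 with 1 library left out, lowest without H12h replicate 1 and highest without R3h replicate 1), and summed FPKM of 413, 1022 and 1162 in H12h and 426, 1885 and 1793 in R3h. Replicate 1 was the lowest of both groups for blood markers. Hepatocyte markers had 20 of 41 positive and a median of -0.07, with a mean log2(FPKM + 1) of 7.14, 7.14 and 7.61 in H12h and 7.54, 7.6 and 6.26 in R3h. The medians of the endothelial, stellate, cholangiocyte, neutrophil and lymphocyte lists lay between -0.30 and 0.20. Of the 16 tested endothelial genes, 4 did not overlap in the lower direction (25.0%, against 9.94% of all genes; 2 on FPKM, or 12.5% against 5.98%), a share near that of the macrophage list. The part of these cell markers in the results above was not tested.

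**Figure D5:**
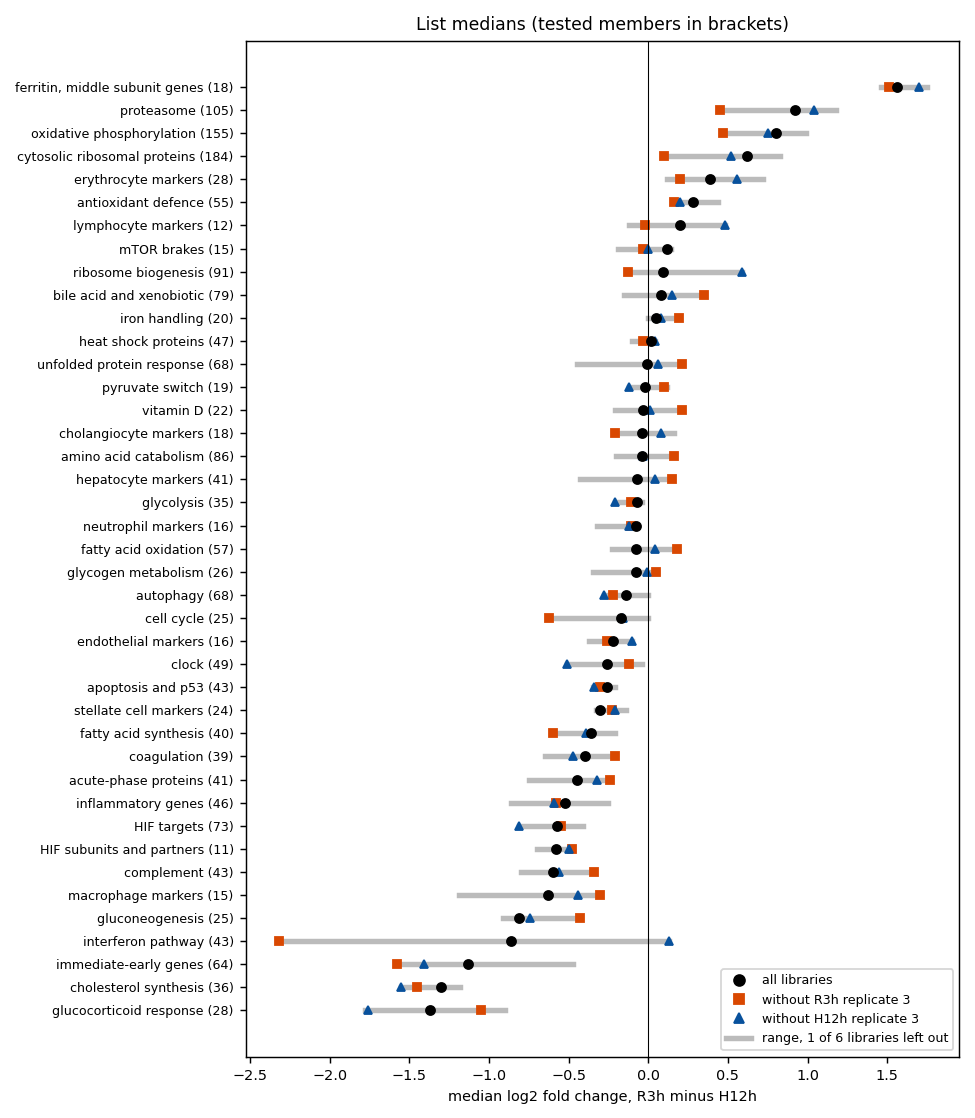
Median log2 fold change, R3h minus H12h, of each list with at least 10 tested genes (number in brackets) and of the ferritin middle subunit genes: black with all libraries, orange without R3h replicate 3, blue without H12h replicate 3, with a grey bar for the range over leaving out each of the 6 libraries. The cholesterol, glucocorticoid, ferritin, oxidative phosphorylation and proteasome bars stay on one side of 0, and the interferon bar crosses it.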

How the data were processed

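Liver RNA was sequenced by the authors, who deposited one table with raw counts per gene and FPKM for every library, per the file headers. The FPKM values were computed by the authors. TopHat2 2.1.1 and Bowtie2 2.2.8 are named, per the submitters' processing notes. Which build, annotation and counting tool they used is not given in the sources used here. Of 34965 genes, 29488 carry a name, and 31271 identifiers were found in RefSeq's table for USDA_OmykA_1.1.

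The counts were tested with edgeR 4.0.16 (R 4.3.3): quasi-likelihood test, TMM scaling, all 15 libraries in a fit of 5 group means, contrast R3h minus H12h, two-sided, with Benjamini-Hochberg adjustment over 17502 genes whose mean FPKM reached 0.5. A call is an adjusted p under 0.05, and SE is the log2 fold change over the root of the test's F. The script was tested on simulated counts with 200 changed genes, where 1.39% of the edgeR calls and 22.6% of the DESeq2 calls were false. There edgeR recovered 0.0% of the 2-fold, 27.6% of the 4-fold and 71.4% of the 8-fold changes. These rates belong to the simulated counts and do not give the share of false calls among the 16 calls. For single values, 3 against 3 cannot give an exact two-sided permutation p below 0.1. Groups do not overlap where all 3 scaled CPM values of one exceed those of the other. The choice of this scale over FPKM was made after seeing the data.

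The comparison, the 44 gene lists and the tests were chosen with earlier results of these data known. Lists match symbols, and 21 genes whose deposited and RefSeq names conflict were left out. The naming rule took up to 15 called genes each way with at least 5 FPKM in the higher group and no overlap, the same without R3h replicate 3, the smallest p up to 10 each way, the 3 smallest p per list, and the most expressed copies of set hypoxia and stress genes. A selection of these is given here. The Egln3 copy 110505778, the ferritin family and the calls under 5 FPKM were added after values were seen. Alternatives used DESeq2 1.42.0 and limma 3.58.1, other scalings, filters, pseudocounts, libraries left out and a replicate block. Values of some genes are not reported here.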

Additional observations from a re-analysis of the deposited data

How the results depend on the processing

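The number of genes differing (16 in all, 6 higher and 10 lower in R3h) depended strongly on the tool and the libraries. RLE scaling gave 16 and upper-quartile scaling 20, and limma on log2(FPKM + 0.1) gave 18. DESeq2 gave 1482 (737 higher, 745 lower), limma with voom and library weights 2984 (1472 higher, 1512 lower), and limma on log2(FPKM + 1) 46 (19 higher, 27 lower). Without a filter on low values there were 46 (13 higher, 33 lower), and with a mean FPKM of at least 5 there were 48 of 5494 (12 higher, 36 lower). With a fit of the 6 libraries alone there were 0 (0 higher, 0 lower), with 1923 genes at an unadjusted p below 0.05. Leaving out 1 library gave 0 to 1420 calls, 0 to 753 of them higher and 0 to 667 lower. By library these were 1 without H12h replicate 1, 6 without H12h replicate 2, 297 without H12h replicate 3, 0 without R3h replicate 1, 1420 without R3h replicate 2 and 42 without R3h replicate 3. Leaving out both H12h replicate 3 and R3h replicate 3, added after seeing the data, gave 557 (146 higher, 411 lower). Of the 16 calls, DESeq2, voom with weights and the fit without both replicates kept 16. Fewer were kept by limma on log2(FPKM + 1), with 12, by limma on log2(FPKM + 0.1), with 11, and by the fit of the 6 libraries alone, with 0. The cause of these differences was not tested.

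No label says whether the numbers shared by H12h and R3h libraries pair them. The correlations of same-numbered deviations from the group means were -0.02, -0.01 and 0.02, and those of differently numbered ones -0.04 to 0.07. With 3 libraries a group, these values cannot settle whether the libraries are paired or share a batch. A fit with the replicate number as a block gave 16 calls (6 higher, 10 lower), 12 of them shared with the fit without it. Of 75 genes followed over the alternatives, 968 of 1252 values kept their direction and side of the threshold, 79 lost a call, 190 gained one and 15 changed sign. None of those that changed sign is a called gene. Per1 (110509930), a clock gene, had a log2 difference of -0.32, with -0.68 to 0.17 when 1 library was left out. The others were ferritin middle subunit copies. Copy 110537940 (0.26) had -0.05 by limma on log2(FPKM + 0.1), -0.46 with voom weights and -1.15 to 0.67 with 1 library left out, and -0.97 without both replicates 3. Copy 110537942 (-0.01) had 0.13 and 0.14 by limma with pseudocounts of 1 and 0.1, 0.04 without a filter, 0.02 with the replicate block, -0.13 to 0.12 with 1 library left out, and -0.25 without both replicates 3. Copy 110537941 (0.51) had 0.00 to 0.81 with 1 library left out and -0.08 without both replicates 3, and copy 110537949 (1.03) had -1.21 to 2.75 with 1 library left out. With 3 libraries a group and the spread of R3h, small differences are not detectable here, and a missing call does not show that a gene was alike in the groups.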

Other observations

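Some genes came close to the threshold without a call and belong to none of the pathways above. The transporter Slc7a1 (110504989), which brings arginine and lysine into cells, had 19.6, 24.3 and 8.46 FPKM in H12h and 2.49, 5.94 and 2.31 in R3h (log2 difference -2.53 ± 0.46, edgeR adjusted p = 0.058). FOXO4 (110504990), a transcription factor restrained by insulin signalling, had 8.86, 7.59 and 1.82 FPKM in H12h and 0.55, 1.39 and 0.38 in R3h (-3.23 ± 0.58, adjusted p = 0.058). Ezr (110529416), which ties the membrane to actin, had 12.8, 16.6 and 17 FPKM in H12h and 5.67, 6.88 and 4.03 in R3h (-1.63 ± 0.29, adjusted p = 0.055). In each of these 3 genes every R3h library was below every H12h library. The reference groups differed between them. Slc7a1 had means of 4.23 FPKM in N, 17.4 in H12h, 3.29 in H24h and 3.58 in R3h. FOXO4 had 1.05 in N, 6.09 in H12h, 1.24 in H24h and 0.773 in R3h. Ezr had 15.7 in N, 15.4 in H12h, 5.22 in H24h and 5.53 in R3h, so its H12h mean was near that of N.

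In the other direction, impact (100301706), a brake on the amino acid sensing kinase GCN2, had 1.58, 1.31 and 1.82 FPKM in H12h and 6.09, 4.05 and 5.31 in R3h (1.61 ± 0.30, adjusted p = 0.059). The endoplasmic reticulum gene ier3ip1 (110535816) had 3.55, 3.33 and 4.74 FPKM in H12h and 10.6, 11.4 and 13.5 in R3h (1.49 ± 0.27, adjusted p = 0.058). emc6 (110533629), of the complex that inserts membrane proteins, had 1.82, 2.16 and 2.49 FPKM in H12h and 7.68, 6.59 and 14.4 in R3h (2.0 ± 0.37, adjusted p = 0.058). These 3 genes had no overlap between the groups, with R3h the higher. A second ier3ip1 copy (100301686) had a smaller log2 difference of 0.57 ± 0.37 (adjusted p = 0.38). Among glycolysis genes, the triosephosphate isomerase copy tpi1a (110488374) had 5.08, 5.64 and 8.35 FPKM in H12h and 15.5, 17.9 and 28.7 in R3h (1.58 ± 0.38, adjusted p = 0.074). Its N mean was 13.9 ± 7.43 FPKM (SD, n = 3), above H12h. The more expressed copy tpi1b (110489325) had 80.5, 55.4 and 48.1 FPKM in H12h and 88.3, 51.7 and 118 in R3h, with overlap (0.35 ± 0.39).

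The remaining lists gave no call in either direction apart from GOT1 in amino acid catabolism and TYMS in the cell cycle. The unfolded protein response had 33 of 68 genes positive and a median of -0.01. Fatty acid oxidation had 28 of 57 positive and a median of -0.08, with 11 free of overlap in the higher direction (19.3%, against 10.7% of all genes). Amino acid catabolism had 42 of 86 positive and a median of -0.04. Inflammatory genes had 34 of 46 negative and a median of -0.52, with -0.25 when H12h replicate 2 was left out and -0.86 when R3h replicate 2 was. Clock genes had 32 of 49 negative and a median of -0.26, which was -0.04 without H12h replicate 1 and -0.51 without H12h replicate 3. The medians of autophagy, apoptosis and p53, cell cycle, ribosome biogenesis, glycogen, pyruvate switch, mTOR brakes, vitamin D, and bile acid and xenobiotic genes lay between -0.26 and 0.12.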
